A study of Homo sapiens with 9 samples.

Results

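TGX221 was compared with its vehicle in H69 cells on 6 of the 9 expression arrays of the series, 3 arrays for each group, across 19775 genes. The genes were taken from the 41091 of 54675 probe sets that the platform annotation assigns to exactly 1 gene symbol, and each gene was followed by its brightest probe set. H69 is an established human line of small cell lung cancer, a neuroendocrine tumour, whose cells float as clumps. All groups were kept for 24 h in complete RPMI medium with fetal calf serum. The control group received DMSO according to the treatment protocol, although its treatment field reads none, and the TGX221 group received a labelled dose of 1 mM. No file allows that unit to be checked. The remaining 3 arrays held cells given PIK75 at 100 nM, a second PI3K inhibitor, and entered this comparison only through the estimate of spread and the choice of the brightest probe set.

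Phosphoinositide 3-kinases (PI3K) are lipid kinases that phosphorylate membrane inositol lipids downstream of growth factor and G protein-coupled receptors. The lipid they make recruits the kinase AKT, which acts on mTOR complexes, FOXO transcription factors and GSK3 kinases, and thereby on growth, survival, glucose uptake and lipid synthesis. Class I enzymes pair a catalytic with a regulatory subunit. TGX221 is known as an inhibitor that prefers the p110β catalytic isoform, the product of PIK3CB, which in many cell types signals mainly below G protein-coupled receptors. The title of the series names the p110α isoform as its main subject, so the comparison with TGX221 concerns an inhibitor known to prefer another isoform. Whether that preference holds at the labelled dose was not tested.

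The 6 arrays were close to each other. The median gene value lay between 8.20 and 8.23 (log2) on each of them, and the interquartile range was 2.78 to 2.83 on the control arrays and 2.71 to 2.77 with TGX221. TGX221 replicate 3 lay nearest to the controls, at a correlation with them of 0.9976 to 0.998 across genes, against 0.9961 to 0.9972 for replicate 2 and 0.9956 to 0.9967 for replicate 5. The 11 measured neuroendocrine markers of small cell lung cancer had log2 levels of 9.18 to 13.05 in the controls. The T cell markers lay at 6.32 to 7.79, with CD3D and CD3E at 6.68 and 6.42. Markers of B cells lay at 6.20 to 8.57, of macrophages at 5.57 to 7.12 and of endothelium at 6.08 to 8.51. Those of squamous epithelium lay at 6.58 to 7.42, of alveolar epithelium at 8.40 to 9.09 and of fibroblasts at 6.26 to 9.30. The ranges thus overlapped in part, and levels of different probe sets cannot be set against each other. Only a number tells the arrays of a group apart. Their spread, and with it each p-value, may therefore be technical, and precision is limited by 3 arrays per group.

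TGX221 was followed by small differences. Of 19775 genes, 239 passed the test (1.21%), of which 160 rose (0.809%) and 79 fell (0.399%), by limma at a Benjamini-Hochberg adjusted p below 0.05. The median gene difference was -0.0017 on the log2 scale, the quartiles lay at -0.07 and 0.07, and the whole range ran from -0.80 to 0.56. Among the called genes the median size of the difference was 0.34, and only 3 of the 239 reached 1.5-fold: GPR160, SCN9A and PPP1R3C, all of which fell. The smallest adjusted p was 0.0254. RNA of whole cultures was measured, so fewer cells with a transcript and less of it per cell cannot be told apart. In the same fit, 11947 genes (60.4%) were called for PIK75, which was given at another dose and shares the 3 control arrays.

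The number of calls rested on few arrays. A fit on the 6 control and TGX221 arrays alone called 0 genes by limma, with 4036 genes at an unadjusted p below 0.05 and a smallest adjusted p of 0.0515. In the 9-array fit 3620 genes (18.3%) had an unadjusted p below 0.05, 1862 of them higher (9.42%) and 1758 lower (8.89%). The counts at that threshold given for each list below are to be read beside these shares. Without TGX221 replicate 2 or 5, or without control replicate 3, the count of calls was 0, with 2435, 2210 and 2743 genes at an unadjusted p below 0.05. Without control replicate 1 it was 3 higher and 1 lower, and without control replicate 5 it was 11 and 11. Without TGX221 replicate 3 it rose to 385 higher and 316 lower genes. That array had the smallest differences at the called genes: the median over genes called higher was 0.28 for replicate 3, 0.35 for replicate 2 and 0.39 for replicate 5, and over genes called lower -0.28, -0.36 and -0.37. Of the called genes, 0 were called in the opposite direction under any of the 19 alternatives. That count says little on direction, since alternatives that called 0 genes could not show an opposite call. Alternatives that changed only the spread or the threshold kept the sign of each difference. The direction split depended on scaling, which RMA sets by making arrays alike in distribution: 66.9% of calls were higher as deposited, 91.3% when the poly-A spikes set the scale (464 higher and 44 lower) and 12.8% when the hybridization spikes did (81 higher and 552 lower).

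**Figure D1:**
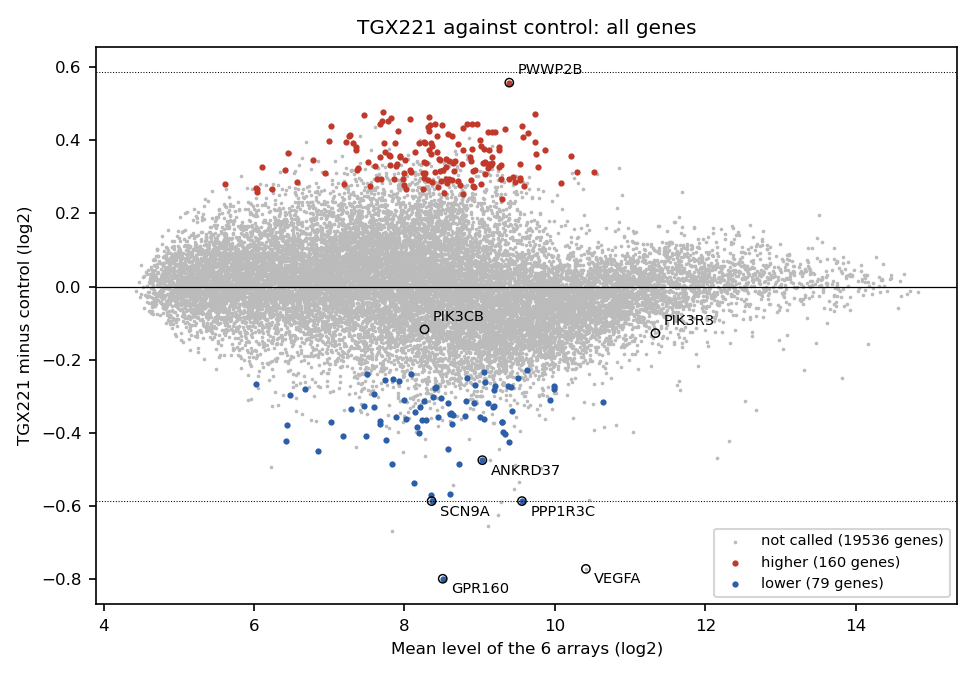
The plot of all genes gives the mean log2 level of the 6 arrays on the horizontal axis and the log2 difference, TGX221 minus control, on the vertical axis, with 1 point per gene, called genes in colour and the dotted lines at 1.5-fold. The 160 genes called higher stay below the upper line, 3 of the 79 called lower reach the lower line, and VEGFA, though far from 0, was not called.

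The largest fall was that of GPR160. This gene, a G protein-coupled receptor, read 8.93, 9.12 and 8.67 in control replicates 1, 3 and 5 and 7.94, 8.26 and 8.13 in TGX221 replicates 2, 3 and 5. The fall of 1.74-fold was the largest of all genes (log2 difference -0.80 ± 0.15 SE, adjusted p = 0.0363). SCN9A, a voltage-gated sodium channel of sensory neurons, read 8.44, 8.69 and 8.83 in the controls and 8.02, 8.28 and 7.90 with TGX221, a log2 difference of -0.59 (adjusted p = 0.0395), and its other probe set gave -0.15. PPP1R3C, which directs protein phosphatase 1 to glycogen, read 9.86, 10.10 and 9.61 against 9.001, 9.44 and 9.37, also -0.59 (adjusted p = 0.0470), while a second probe set of the gene gave 0.14. INTS6, a subunit of the Integrator complex that processes small nuclear RNAs and ends transcription, had the tightest groups of these genes, 8.55, 8.70 and 8.66 in the controls and 7.96, 8.21 and 8.03 with TGX221 (-0.57, adjusted p = 0.0254), and its 3 other probe sets gave -0.48, -0.14 and -0.01. In all 4 genes the TGX221 array nearest to the controls was replicate 3. The groups did not overlap, as the rule for naming these genes required.

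The other falls among the 12 largest lay between -0.57 and -0.42 on the log2 scale. They were BRWD3, a bromodomain protein (-0.57), PTH2R, a receptor of the parathyroid hormone receptor family (-0.54), ARL6, a small GTPase of ciliary transport (-0.48), LNPK, which shapes junctions of the endoplasmic reticulum (-0.48), ANKRD37, a known HIF1 target (-0.47), NID2, a basement membrane nidogen (-0.45), PALS1, a scaffold of epithelial polarity (-0.44), and PTPRF, a receptor tyrosine phosphatase (-0.42). NID2 had the narrowest spread, with 7.08, 7.12 and 7.004 in the controls and 6.68, 6.59 and 6.59 with TGX221 (adjusted p = 0.0254). The other probe sets of LNPK gave -0.47 and -0.17, that of ARL6 gave -0.29 and that of PALS1 gave -0.20. Those of BRWD3 gave -0.05 and -0.13, that of ANKRD37 gave -0.01, and the 3 of PTPRF gave -0.22, 0.14 and 0.02. The PIK75 values of these 12 genes were all below 0: -2.05 for GPR160, -1.69 for SCN9A, -1.32 for PPP1R3C, -1.26 for INTS6, and between -1.40 and -0.65 for the other 8. Over all genes the median PIK75 value was 0.09. No comparison is made with them, since the doses differ and the control arrays are shared, so that a high control value lowers both differences.

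For the 4 largest falls, and for ANKRD37 as the called member of the list of HIF1 targets described below, the 250 bases before the annotated start are shown. The sequences are from RefSeq (GRCh38.p14), written 5′ to 3′ on the gene's strand, with capitals marking ACGTG on either strand (CACGT where it lies on the other strand), the core that HIF1 binds, which overlaps the E-box CACGTG. GPR160 lies on the plus strand (chr3:170037745-170037994) and holds 1 match. SCN9A lies on the minus strand (chr2:166375945-166376194) and holds 0, PPP1R3C on the minus strand (chr10:91633072-91633321) holds 4 and INTS6 on the minus strand (chr13:51453037-51453286) holds 3. ANKRD37 on the plus strand (chr4:185396591-185396840) holds 3.
GPR160: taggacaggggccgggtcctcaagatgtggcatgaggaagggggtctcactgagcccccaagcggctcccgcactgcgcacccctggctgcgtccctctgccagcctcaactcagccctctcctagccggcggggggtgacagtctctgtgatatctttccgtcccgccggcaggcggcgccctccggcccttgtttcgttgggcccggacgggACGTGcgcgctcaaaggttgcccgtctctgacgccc
SCN9A: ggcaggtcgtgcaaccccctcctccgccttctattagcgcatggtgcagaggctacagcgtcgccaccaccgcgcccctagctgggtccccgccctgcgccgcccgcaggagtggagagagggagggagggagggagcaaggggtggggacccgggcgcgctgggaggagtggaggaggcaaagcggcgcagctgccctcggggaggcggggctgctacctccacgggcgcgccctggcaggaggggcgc
PPP1R3C: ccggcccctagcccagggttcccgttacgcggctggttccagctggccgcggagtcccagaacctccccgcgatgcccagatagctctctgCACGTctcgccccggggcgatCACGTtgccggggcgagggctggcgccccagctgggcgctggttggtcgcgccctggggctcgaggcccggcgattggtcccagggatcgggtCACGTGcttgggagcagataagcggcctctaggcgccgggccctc
INTS6: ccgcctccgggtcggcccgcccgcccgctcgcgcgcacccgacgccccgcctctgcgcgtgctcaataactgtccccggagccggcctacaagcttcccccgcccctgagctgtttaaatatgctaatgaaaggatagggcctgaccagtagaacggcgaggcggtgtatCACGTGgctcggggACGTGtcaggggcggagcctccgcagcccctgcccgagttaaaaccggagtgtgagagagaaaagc
ANKRD37: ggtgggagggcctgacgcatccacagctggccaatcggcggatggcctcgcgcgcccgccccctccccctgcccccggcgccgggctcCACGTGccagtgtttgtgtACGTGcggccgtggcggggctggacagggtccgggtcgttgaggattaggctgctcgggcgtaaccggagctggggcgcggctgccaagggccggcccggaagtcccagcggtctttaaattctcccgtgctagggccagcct
ACGTG stood in 18 of the 66 promoters of genes that fell (27.3%), in 27 of the 124 of genes that rose (21.8%) and in 3258 of all 15382 matched genes (21.2%). These shares count only the window before the first annotated start of each gene. A match describes the letters of this window, and the search says nothing on binding. Matches on both strands of 1 E-box are counted separately.

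The largest rises were smaller than the largest falls. PWWP2B, a chromatin protein, read 9.11, 9.08 and 9.16 in the controls and 9.73, 9.50 and 9.78 with TGX221, the largest rise of all genes (0.56 ± 0.07 SE, 1.47-fold, adjusted p = 0.0254), and its other probe sets gave 0.17 and 0.42. The probe set used and that at 0.42 carry the suffix _x_at, which marks probes that can bind several transcripts, and that at 0.17 does not. PTAFR, the receptor for platelet-activating factor, read 7.63, 7.56 and 7.59 against 8.09, 7.96 and 8.11 (0.46, adjusted p = 0.0254), while its other probe sets gave 0.10 and -0.04. ZSWIM8, an adaptor of a ubiquitin ligase that acts on Argonaute in microRNA decay, read 9.51, 9.52 and 9.46 against 9.87, 9.93 and 10.10 (0.47, adjusted p = 0.0268), and its other probe set gave -0.03. In these genes each TGX221 array lay above each control array, as the rule for naming them required. The other probe sets of PTAFR and ZSWIM8 stayed near 0. A probe set annotated to MIR146A, which would read the primary transcript and not the mature microRNA, read 7.85, 7.79 and 7.89 against 8.32, 8.19 and 8.40 (0.46, adjusted p = 0.0254).

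The remaining rises among the 12 largest were CPEB3, a regulator of messenger RNA polyadenylation and translation (0.48), TMEM151A (0.47), EPHB4, an ephrin receptor tyrosine kinase (0.46), PTPN5, a neuronal tyrosine phosphatase (0.45), TTC9B (0.45), TMEM92-AS1, an antisense RNA (0.45), TPSAB1, a mast cell tryptase (0.45), and CTAG2, a cancer-testis antigen (0.44). TPSAB1 and CTAG2 have near-identical neighbours in the genome, so their probe sets may read those genes too. For CPEB3 the 3 other probe sets gave -0.09 to -0.04 and for EPHB4 the other gave 0.02. The others of PTPN5 gave -0.05 and 0.17, that of TTC9B 0.17, that of TMEM92-AS1 0.03 and that of CTAG2 0.05, and the 4 of TPSAB1 gave 0.12 to 0.27. The PIK75 values of the 12 genes lay between 0.22 and 0.59, against a median of 0.09 over all genes.

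**Figure D2:**
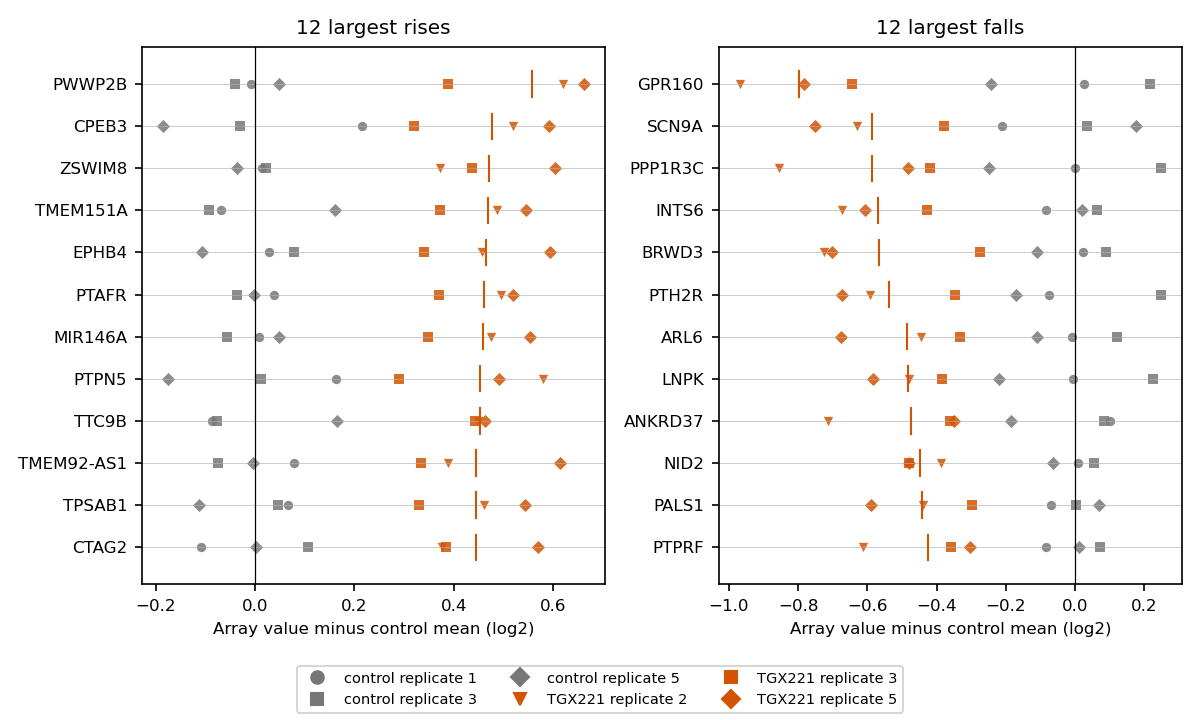
The plot of the 12 largest rises and 12 largest falls gives, for each gene, every array's log2 value minus the control mean, in grey for control and orange for TGX221 arrays, with a bar at the TGX221 mean. The groups separate for each gene shown, as the rule for naming them required. TGX221 replicate 3 (squares) is the TGX221 array closest to the controls for most of them.

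Of the 160 genes called higher, 22 (13.8%) were read by a probe set with the suffix _x_at, which marks probes that can bind several transcripts, against 1 of the 79 called lower (1.27%) and 1183 of all genes (5.98%). Protein-coding genes made up 87.5% of the genes that rose, 96.2% of those that fell and 83.7% of all genes. The median control level was 8.29 for genes that rose, 8.65 for genes that fell and 8.21 for all. Of the 229 other probe sets of 98 genes that rose, 158 had the same sign, 46 of them at an unadjusted p below 0.05 against 6 of the opposite sign, and the median was 0.05. Of the 113 other probe sets of 54 genes that fell, 69 had the same sign, 24 against 4 at that threshold, and the median was -0.04. The part of cross-binding probes in these calls was not tested.

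Targets of HIF1, the transcription factor that is stable at low oxygen and whose synthesis PI3K and mTOR signalling can raise, had the lowest median of the gene lists described. Of 20 measured members outside glycolysis, 1 fell (ANKRD37), 0 rose, and 19 lay below 0, with a median of -0.39 against -0.0017 for all genes. Of the 20, 10 were lower at an unadjusted p below 0.05 by limma and 0 higher, where 8.89% of all genes were lower and 9.42% higher. But only 1 of the 20 had groups that did not overlap, where 12.4% of all genes were lower without overlap. ANKRD37 read 9.37, 9.36 and 9.09 in the controls and 8.56, 8.91 and 8.92 with TGX221 (-0.47, adjusted p = 0.0488). The median PIK75 value of the list was -1.17, against 0.09 over all genes.

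These genes also moved between arrays of the same group. The median control SD of the 20 genes was 0.40, against 0.06 over all genes. Control replicate 3 was the highest control for 18 of the 20 genes and control replicate 5 the lowest for 19, and TGX221 replicate 3 was the highest TGX221 array for 16. Relative to the control mean the list's median was 0.07, 0.34 and -0.41 in control replicates 1, 3 and 5 and -0.53, -0.10 and -0.51 in TGX221 replicates 2, 3 and 5. Control replicate 5 therefore lay below TGX221 replicate 3. The median difference between arrays of the same number was -0.48 for number 3, where 19 of 20 genes were below 0, and -0.10 for number 5, where 15 were. Without control replicate 3 the list's median was -0.24, and without control replicate 5 it was -0.57. The part of this spread in the difference between the groups was not tested.

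VEGFA, the angiogenic growth factor, showed this spread most plainly. It read 11.05, 11.38 and 9.97 in the controls and 9.67, 10.72 and 9.70 with TGX221, a log2 difference of -0.77 with a 95% interval of -1.72 to 0.17 (adjusted p = 0.375). The control and TGX221 values overlapped. MXI1, a MAX-binding repressor, read 9.66, 10.08 and 8.93 against 8.84, 9.33 and 8.63 (-0.62, adjusted p = 0.229). P4HA1, a collagen prolyl hydroxylase, differed by -0.58 (adjusted p = 0.150), BNIP3, a mitophagy receptor, by -0.42 (adjusted p = 0.181) and ADM, the vasodilator adrenomedullin, by -0.34 (adjusted p = 0.133). DDIT4, a stress-induced inhibitor of mTOR, followed another order: it read 12.37, 12.48 and 12.34 in the controls and 11.65, 11.80 and 12.34 in TGX221 replicates 2, 3 and 5 (-0.47, adjusted p = 0.131). It was low in replicates 2 and 3 and at control level in replicate 5. CA12, a carbonic anhydrase, was the 1 member above 0 (0.11).

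Genes of glycolysis and glucose uptake had the next lowest median, -0.14 over 26 measured members. The count of calls among them was 0 by limma, and 21 lay below 0. At an unadjusted p below 0.05 by limma 8 were lower and 0 higher, where 8.89% of all genes were lower and 9.42% higher. Here 10 of 26 had TGX221 values all below the control values and 0 all above. Over all genes 12.4% were lower and 11.5% higher without overlap. Such a share was not particular to this list. Of 19 genes of cholesterol synthesis and uptake 8 were lower and 2 higher without overlap, and of 13 of fatty acid synthesis 5 and 1. Of 21 endoplasmic reticulum chaperones it was 7 and 0, and of 8 class I PI3K subunits 3 and 0. PDK1, the kinase that shuts pyruvate out of the mitochondrial dehydrogenase, read 9.85, 9.98 and 9.53 in the controls and 9.16, 9.44 and 9.16 with TGX221 (-0.53, adjusted p = 0.058), but its other probe sets gave -0.06 and 0.09. ALDOC, an aldolase, read 9.52, 9.69 and 9.08 against 8.49, 9.04 and 8.81 (-0.65, adjusted p = 0.064). ENO1, an enolase, read 13.43, 13.51 and 13.33 against 13.20 on each TGX221 array (-0.23, adjusted p = 0.081). PGK1, phosphoglycerate kinase, differed by -0.25 (adjusted p = 0.082), with 5 other probe sets at -0.48 to -0.27. The probe set at -0.48 was called by limma where every probe set was tested (adjusted p = 0.0499). GAPDH differed by -0.03.

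The glycolytic list split into steady and unsteady members. HK2, the hexokinase induced in many tumours, read 11.09, 11.55 and 9.91 in the controls, an SD of 0.84 that was the largest of the list, and 10.43, 10.90 and 10.07 with TGX221. PFKFB3, which makes the activator of phosphofructokinase, read 10.23, 10.65 and 9.32 against 9.41, 10.09 and 9.22. LDHA, lactate dehydrogenase, varied little, with 14.23, 14.31 and 14.18 against 14.07, 14.14 and 14.03 (-0.16, adjusted p = 0.373). HK2 and PFKFB3 overlapped between the groups, whereas LDHA did not. The list's median between arrays of the same number was -0.21 for number 3 and -0.03 for number 5. Under eBayes with a trended and robust spread 5 members were called lower, and without TGX221 replicate 3 it was 2. HK2, PFKFB3 and LDHA, like VEGFA, CA12 and GAPDH, were chosen after their values were seen.

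**Figure D3:**
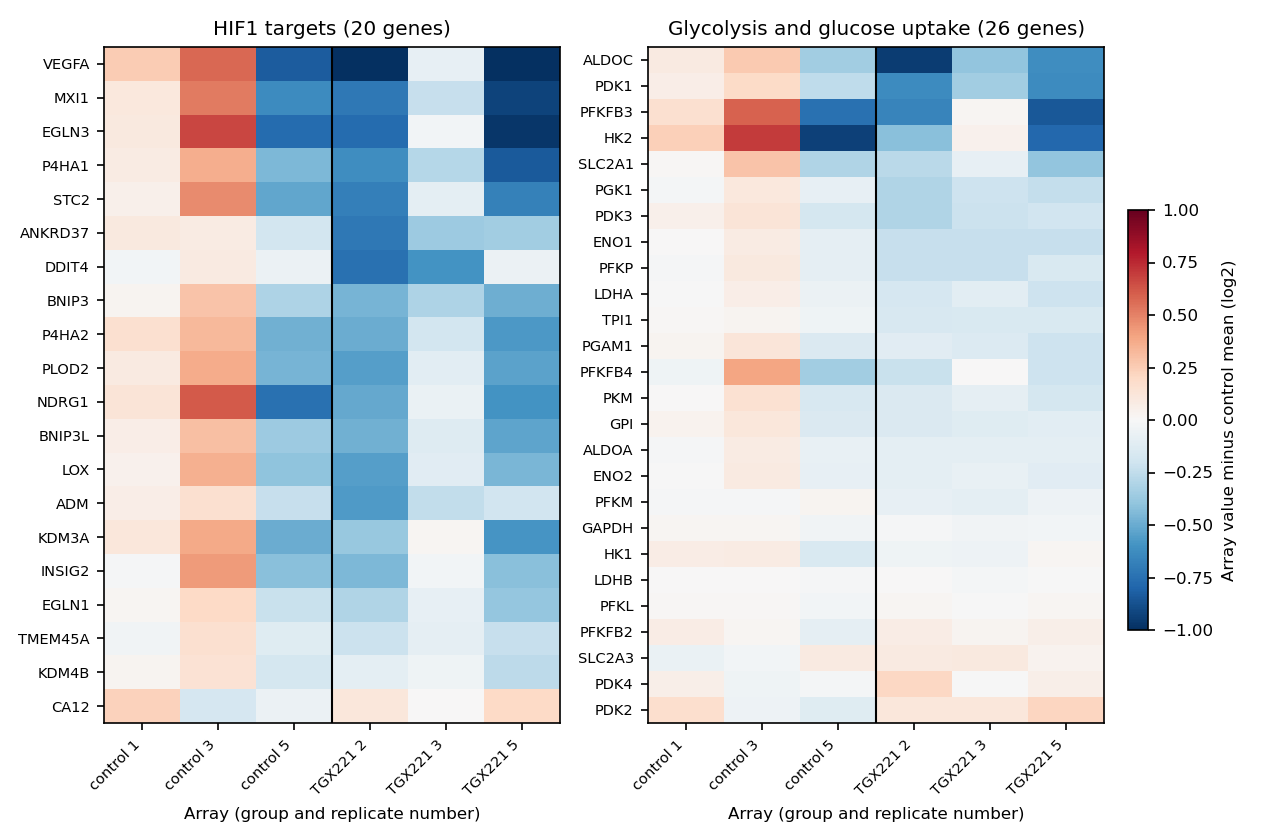
The colour maps give, for each of 20 HIF1 targets and 26 genes of glycolysis and glucose uptake (rows) on each of the 6 arrays (columns), the log2 value minus the control mean, with colours saturating at the ends of the scale. Control replicate 5 is low and control replicate 3 high for most HIF1 targets, and TGX221 replicates 2 and 5 are low while replicate 3 lies near the control mean.

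ACGTG was present in 9 of the 17 HIF1 list members with a promoter entry (52.9%) and in 9 of the 24 glycolytic ones (37.5%), against 21.2% of all. Only the first annotated start of each gene was counted, so PDK1 entered the glycolytic share as a gene without a match. The members were listed as targets of a factor known to bind these letters, so these shares describe the lists. The 250 bases before the second of the 2 annotated starts of PDK1 on the plus strand (chr2:172555840-172556089, GRCh38.p14) and before the start of BNIP3 on the minus strand (chr10:131981924-131982173) are shown as the promoters of a list member of each kind, marked as above.
PDK1: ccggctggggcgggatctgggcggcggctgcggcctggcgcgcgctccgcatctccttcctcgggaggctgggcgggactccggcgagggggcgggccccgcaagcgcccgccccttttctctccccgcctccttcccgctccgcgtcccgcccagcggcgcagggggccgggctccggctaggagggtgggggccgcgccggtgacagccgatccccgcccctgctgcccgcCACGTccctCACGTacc
BNIP3: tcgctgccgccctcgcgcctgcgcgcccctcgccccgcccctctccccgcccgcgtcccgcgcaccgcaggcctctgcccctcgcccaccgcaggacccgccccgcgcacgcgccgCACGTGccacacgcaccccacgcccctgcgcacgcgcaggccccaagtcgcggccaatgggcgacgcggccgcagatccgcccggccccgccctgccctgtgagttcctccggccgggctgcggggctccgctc
PDK1 holds 2 matches in this window and 0 in that before its first annotated start, which is not shown, and BNIP3 holds 2 that share the letters of 1 E-box.

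PIK3CB, which encodes the isoform that TGX221 prefers, read 8.32, 8.28 and 8.38 in the controls and 8.19, 8.25 and 8.19 with TGX221, a log2 difference of -0.12 with a 95% interval of -0.24 to 0.01 (adjusted p = 0.305). Among the catalytic subunits PIK3CD differed by 0.12 (adjusted p = 0.309) and PIK3CG by 0.12 (adjusted p = 0.443). Among the regulatory subunits PIK3R1 differed by 0.00, but its other probe sets gave -0.27 (unadjusted p = 0.0029 by limma) and -0.11. PIK3R3, with 11.40, 11.41 and 11.40 in the controls and 11.22, 11.37 and 11.23 with TGX221, differed by -0.13 (adjusted p = 0.231). PIK3R4, listed with them although it is the regulatory partner of the class III enzyme, differed by -0.15 (adjusted p = 0.204). Of the 8 measured members 0 were called by limma, with 2 lower at an unadjusted p below 0.05, and the median was -0.08. The PIK75 values were -1.27 for PIK3CB and -1.82 for PIK3R3, against a median of 0.09 over all genes.

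Below and beside the kinase, 0 of 20 genes of AKT, mTOR complexes and TSC were called by limma, with 2 higher and 3 lower at an unadjusted p below 0.05 and a median of -0.00. AKT1 and AKT2 each differed by 0.02 and MTOR by -0.06. GSK3A, a kinase that AKT inhibits, read 8.65, 8.78 and 8.64 against 8.94, 8.87 and 8.90 (0.22, adjusted p = 0.077), and TSC2, which restrains mTOR complex 1, differed by 0.19 (adjusted p = 0.080). DEPTOR, an inhibitory subunit of mTOR complexes, read 8.42, 8.56 and 8.34 against 8.15, 8.28 and 8.14 (-0.25, adjusted p = 0.251). GSK3A, TSC2 and DEPTOR each had groups that did not overlap, as had 23.9% of all genes, and none passed the test. Of the 20 members 3 were lower and 3 higher without overlap. Of 11 antagonists and phosphatases 0 were called, with 1 higher and 4 lower at that threshold, led by PIK3IP1, a transmembrane inhibitor of PI3K (-0.24, adjusted p = 0.095). Of 23 receptors and adaptors 0 were called, with 6 higher and 2 lower: INSR, the insulin receptor, differed by 0.19 (adjusted p = 0.156), IGF1R by -0.19 (adjusted p = 0.201), NTRK3 by 0.19 (adjusted p = 0.127), MET by 0.16 (adjusted p = 0.158), IRS1 by -0.06 and IRS2 by -0.02.

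FOXO transcription factors are held out of the nucleus by AKT and drive genes of growth arrest and stress resistance. Of 32 measured FOXO targets 0 were called by limma, and the median was -0.05. At an unadjusted p below 0.05 by limma 3 were higher and 10 lower, where 9.42% of all genes were higher and 8.89% lower. YPEL2 read 9.32, 9.47 and 9.43 in the controls and 9.05, 9.25 and 9.07 with TGX221 (-0.28, adjusted p = 0.067). CITED2, a coactivator inhibitor that also curbs HIF1, differed by -0.32 (adjusted p = 0.141), and FOXO4 itself by 0.27 (adjusted p = 0.114). SESN3, a sestrin, read 10.44, 10.39 and 10.34 against 10.06, 10.36 and 10.01 (-0.25, adjusted p = 0.262), where replicate 3 stayed within the control range. TXNIP, which limits glucose uptake, differed by -0.17 (adjusted p = 0.480).

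Lipid synthesis genes are driven by SREBP factors that AKT and mTOR activate. STARD4, a cholesterol carrier of the cytosol, was the 1 gene called among 19 of cholesterol synthesis and uptake. It read 10.85, 10.86 and 10.70 in the controls and 10.50, 10.50 and 10.47 with TGX221 (-0.31, adjusted p = 0.0356). Its PIK75 value was -2.25, against a median of 0.09 over all genes. The list had 3 members lower and 0 higher at an unadjusted p below 0.05 by limma, 16 below 0 and a median of -0.06. LSS, lanosterol synthase, differed by -0.23 (adjusted p = 0.065), HSD17B7 by -0.15 and HMGCS1 by -0.09. The other probe set of HMGCS1 gave -0.32. Of 13 genes of fatty acid synthesis 0 were called by limma, with 1 higher and 3 lower at that threshold. FASN, fatty acid synthase, read 9.45, 9.32 and 9.45 against 9.26 on each TGX221 array (-0.15, adjusted p = 0.169), ELOVL6 differed by -0.19 (adjusted p = 0.110) and SREBF1 by -0.15 (adjusted p = 0.236).

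**Figure D4:**
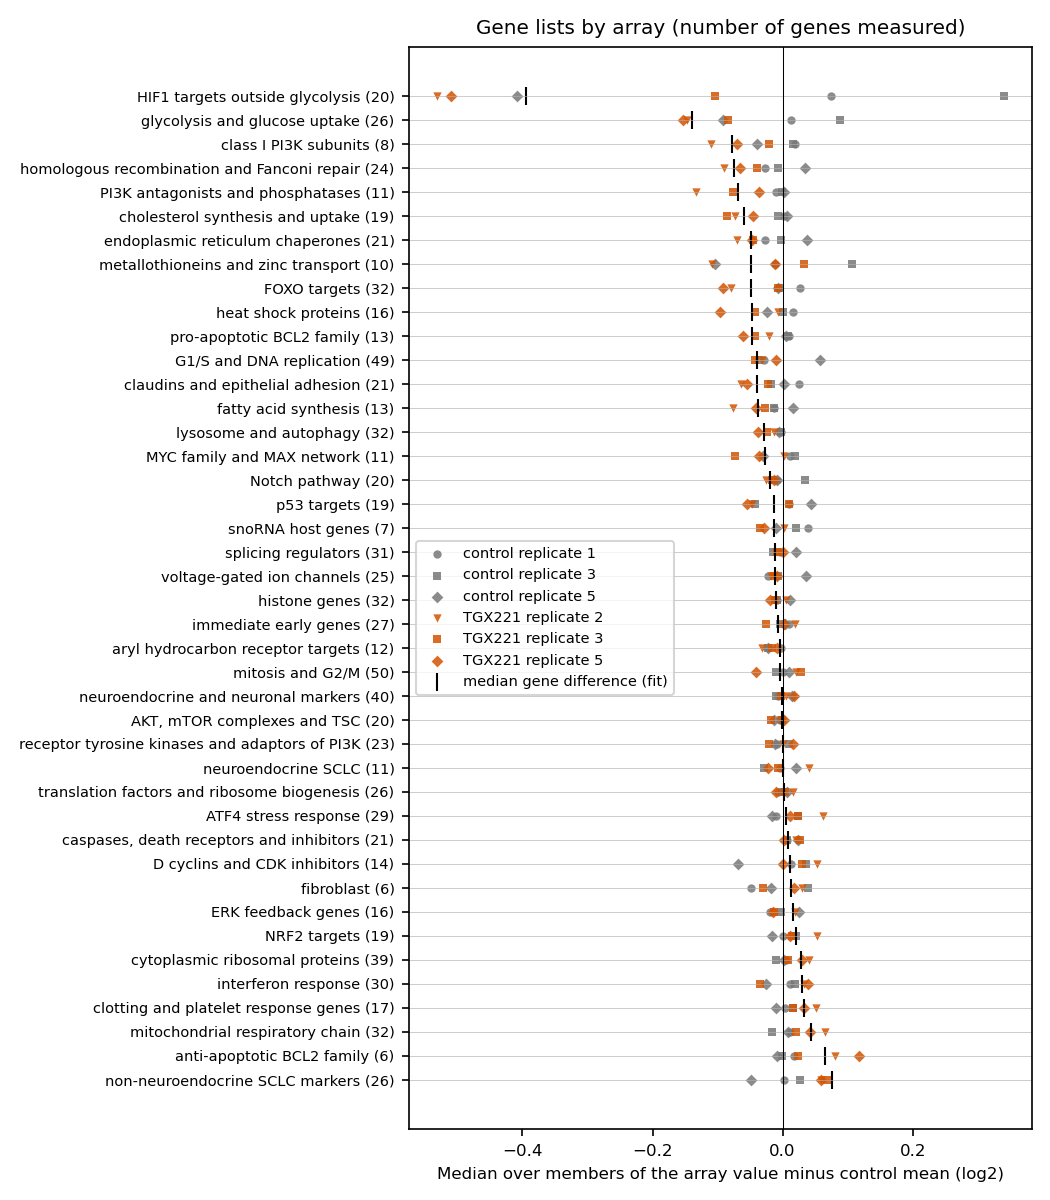
The plot of the 42 gene lists with at least 6 measured genes (rows, with the number of genes measured) gives the median over members of each array's log2 value minus the control mean, in grey for control and orange for TGX221 arrays, with a bar at the median gene difference. The HIF1 targets spread widest, with control replicate 5 at -0.41 among the TGX221 arrays, and the median differences of the other lists lie between -0.14 and 0.08.

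The cell cycle lists held no called gene. Of 49 genes of G1/S and DNA replication 0 were called by limma, with 5 lower and 0 higher at an unadjusted p below 0.05 and a median of -0.04. RPA2, a subunit of the single-strand DNA binding complex, differed by -0.24 (adjusted p = 0.096) and POLA1, the priming polymerase, by -0.20 (adjusted p = 0.131). Of 50 mitotic genes 0 were called, with 2 lower, and the median was -0.00. PLK1, a mitotic kinase, read 8.18, 8.19 and 8.17 against 8.04, 8.03 and 8.05 (-0.14, adjusted p = 0.147), a small difference with narrow groups. Of 14 D cyclins and inhibitors 0 were called, with 2 higher: CDKN2B, a CDK4 and CDK6 inhibitor, read 7.50, 7.36 and 7.32 against 7.92, 7.60 and 7.97 (0.44, adjusted p = 0.058), CDK6 differed by 0.17 and RB1 by -0.26. CCND1 differed by 0.10, CCND2 by 0.07, CDKN1A by -0.09 and CDKN1B by -0.05. Of the MYC family MYCN, at 13.68, 13.75 and 13.76 in the controls, differed by -0.03, MYCL by 0.18 and MYC by 0.10, and 0 of 11 members of the MAX network were called, with 1 higher and 1 lower at an unadjusted p below 0.05. Of 24 genes of homologous recombination 0 were called, with 3 higher and 3 lower.

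In cell death, BCL2A1, an anti-apoptotic BCL2 relative that is mainly known from blood cells, rose. It read 5.51, 5.46 and 5.46 in the controls and 5.77, 5.72 and 5.77 with TGX221 (0.28, adjusted p = 0.0326). Both group means lay below 6 on the log2 scale, the level asked of the largest differences named above. BCL2 read 9.83, 9.58 and 9.60 against 9.95, 9.87 and 9.91 (0.24, adjusted p = 0.117), and its other probe sets gave 0.02, 0.14 and 0.28. MCL1 differed by 0.01, with 5 other probe sets at -0.26 to 0.14, so BCL2A1 was the 1 called among 6 anti-apoptotic members. Of 13 pro-apoptotic members 0 were called by limma, with 3 lower at an unadjusted p below 0.05: BCL2L11, the BH3-only protein BIM, read 9.73, 9.71 and 9.73 against 9.56, 9.63 and 9.57 (-0.14, adjusted p = 0.174), with 6 other probe sets at -0.43 to 0.27, BNIP3 is given above, and BCL2L13 differed by -0.15. Of 21 caspases, death receptors and inhibitors 0 were called, with 3 higher, led by CASP9 (0.19, adjusted p = 0.121) and TNFRSF1A (0.19, adjusted p = 0.121). Of 19 p53 targets 0 were called, with 3 lower, led by TP53INP1 (-0.20, adjusted p = 0.131).

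Of 26 translation factors and ribosome biogenesis genes 2 rose, where 0.809% of all genes did: RRP9, a protein of the box C/D snoRNP that processes ribosomal RNA (0.27, adjusted p = 0.0479), and POLR1A, the largest subunit of RNA polymerase I (0.32, adjusted p = 0.0497). RRP9 read 9.46, 9.36 and 9.52 against 9.78, 9.68 and 9.71, and POLR1A 8.24, 8.49 and 8.33 against 8.76, 8.58 and 8.68. The other probe sets of POLR1A gave -0.06 and -0.18, and with the mean of its probe sets the gene differed by 0.03 and was not called. POLR1B, the second subunit of the same polymerase, differed by -0.19 (adjusted p = 0.254), and the list's median was 0.00. Of 39 cytoplasmic ribosomal protein genes 0 were called by limma, with 1 higher at an unadjusted p below 0.05, and 13 had TGX221 values all above the controls and 0 all below, where 11.5% of all genes were higher and 12.4% lower without overlap, at a median of 0.03. Of 32 respiratory chain genes 0 were called, with 1 higher, at a median of 0.04. The sign of both medians turned under spike scaling, to -0.04 and -0.02 with the hybridization spikes.

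Stress lists held few calls. Of 29 ATF4 targets 0 were called by limma, with 2 higher and 3 lower at an unadjusted p below 0.05: VLDLR differed by -0.31 (adjusted p = 0.081), NUPR1 by 0.31 (adjusted p = 0.095), SHMT2 by -0.22 and TRIB3 by 0.20. Of 21 endoplasmic reticulum chaperones and folding genes 0 were called, with 5 lower, led by DNAJB9 (-0.21, adjusted p = 0.087), and of 16 heat shock proteins 0, with 1 lower, HSPA4L (-0.32, adjusted p = 0.110). OSGIN1, an oxidative stress gene, rose (0.27, adjusted p = 0.0488) as the 1 called of 19 NRF2 targets, and SRXN1 differed by 0.24 (adjusted p = 0.093). ATG16L1, which directs lipidation of ATG8 proteins in autophagy, rose (0.31, adjusted p = 0.0395) as the 1 called of 32 lysosome and autophagy genes. Of 10 metallothionein and zinc genes 0 were called by limma, with 1 higher, MT1M (0.15), and of 12 aryl hydrocarbon receptor targets 0, with 1 higher, CYP1A2 (0.28, adjusted p = 0.087). Of 27 immediate early genes and 16 genes of ERK feedback 0 were called, with 1 higher and 2 lower, and 2 higher and 1 lower.

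Among the remaining lists, H2BC21, a histone H2B gene whose message is also polyadenylated, fell (-0.31, adjusted p = 0.0317) as the 1 called of 32 histone genes. It read 8.60, 8.66 and 8.64 in the controls and 8.36, 8.24 and 8.39 with TGX221. IFIT1, an interferon-induced RNA-binding protein, fell (-0.25, adjusted p = 0.0414) as the 1 called of 30 interferon response genes, with 7.99, 8.01 and 7.94 against 7.75, 7.73 and 7.69. SCN9A was the 1 called of 25 voltage-gated channels, where CACNA1E, a calcium channel, differed by -0.28 (adjusted p = 0.089). Of 31 splicing regulators, 7 snoRNA host genes, 21 claudins and adhesion genes, 20 Notch genes and 17 clotting and platelet response genes 0 were called by limma. At an unadjusted p below 0.05, splicing regulators had 1 higher and 2 lower, snoRNA hosts 1 lower (GAS5, -0.31), claudins and adhesion genes 2 and 2, with CDH1, E-cadherin, at -0.25, Notch genes 1 higher and clotting genes 3 higher, led by PLAU, urokinase (0.32, adjusted p = 0.075). Over all 48 lists 893 of 1006 different genes were measured, and 5 rose and 5 fell (1.12%), against 1.21% of all genes. Of the 48 list medians 41 changed sign under at least 1 of 4 other scalings, and 7 did not. Those of the HIF1 targets (-0.46 to -0.33) and of glycolysis (-0.20 to -0.07) stayed below 0. So did those of class I PI3K subunits (-0.143 to -0.009) and of homologous recombination (-0.139 to -0.005). The anti-apoptotic BCL2 family (0.001 to 0.135), non-neuroendocrine markers (0.011 to 0.145) and alveolar markers (0.037 to 0.171) stayed above 0.

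Of 40 neuroendocrine and neuronal markers 0 were called by limma, with 3 higher and 1 lower at an unadjusted p below 0.05 and a median of -0.00. SYP, the synaptic vesicle protein synaptophysin, read 9.17, 9.19 and 9.17 in the controls and 9.38, 9.44 and 9.57 with TGX221 (0.29, adjusted p = 0.066). CHGA, the granule protein chromogranin A, differed by 0.08, DDC, the amine-synthesising decarboxylase, by 0.05 and ELAVL4, a neuronal RNA-binding protein, by -0.12. Of 26 genes that mark non-neuroendocrine tumours of this kind 0 were called, with 5 higher and 1 lower and a median of 0.08, led by NOTCH1 (0.21, adjusted p = 0.124) and LAMB3 (0.25, adjusted p = 0.159). Markers of T cells, B cells, macrophages, fibroblasts, endothelium, squamous and alveolar epithelium held 0 calls by limma, with 1 higher at an unadjusted p below 0.05, the collagen COL3A1 (0.25, adjusted p = 0.105).

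Further called genes outside the lists, chosen after their values were seen, were as follows. ERRFI1, a feedback inhibitor of EGF receptors, read 8.34, 8.34 and 8.44 in the controls and 8.06, 7.99 and 8.08 with TGX221 (-0.33, adjusted p = 0.0395), and the ligand NRG1 rose from 9.03, 8.97 and 9.20 to 9.41, 9.38 and 9.55 (0.38, adjusted p = 0.0326), with 5 other probe sets at -0.20 to 0.06. GYG1, the glycogenin that primes glycogen chains, read 8.18, 8.23 and 8.21 against 7.85, 7.86 and 7.82 (-0.36, adjusted p = 0.0306). ARRDC4, an arrestin-like relative of TXNIP, fell by 0.37 on the log2 scale (adjusted p = 0.0412). APPL2, an endosomal adaptor, fell by 0.38, EIF2AK4, the amino acid sensing kinase GCN2, by 0.37, SKI, a repressor of SMAD signalling, by 0.40 and MAPK8, the kinase JNK1, by 0.25. Each of these falls had groups that did not overlap, as had all 79 genes called lower. The other probe sets of GYG1 and EIF2AK4 gave -0.02 and 0.01, those of SKI gave -0.23 and 0.06, and the 4 of MAPK8 gave -0.12 to 0.12. FGF18, a fibroblast growth factor, rose by 0.43 with narrow groups (9.20, 9.06 and 9.10 against 9.52, 9.53 and 9.59, adjusted p = 0.0254), with 5 other probe sets at 0.00 to 0.28, and TNF, the inflammatory cytokine, by 0.35 (adjusted p = 0.0306).

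**Figure D5:**
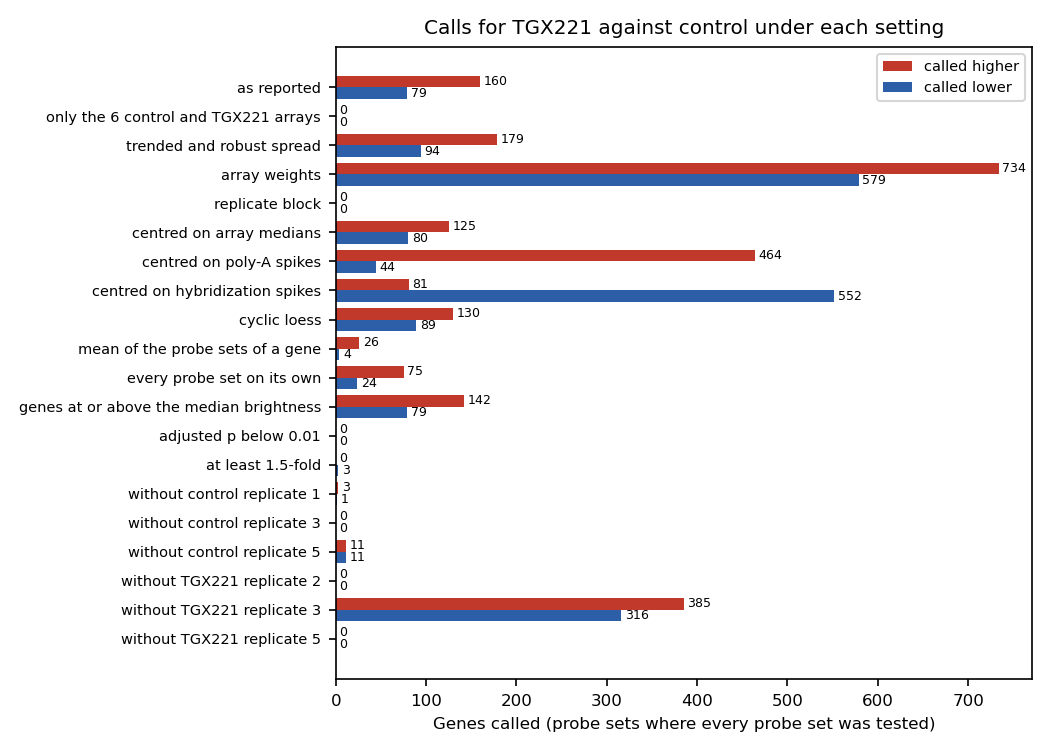
The bar chart gives the number of genes called higher (red) and lower (blue) for TGX221 against control in the fit as reported and under 19 alternatives, with the count beside each bar. Where every probe set was tested, the bars count probe sets. The calls drop to 0 when only the 6 arrays are fitted or when any of 3 arrays is left out, and rise with array weights or without TGX221 replicate 3.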

How the data were processed

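Total RNA of H69 cells was hybridised to Affymetrix arrays, and the deposited log2 values, 1 per probe set and array, had been made by the authors with RMA, of unstated version, according to the submitters' processing notes. They were used as deposited. Of 54675 probe sets, 62 are array controls, 41091 carry 1 symbol (41037 matched to RefSeq), 1801 several and 11721 none. Each of 19775 genes was read by its brightest single-symbol probe set over 9 arrays.

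limma (3.58.1, R 4.3.3; lmFit and eBayes) was fitted to 9 arrays with 3 group means and no covariate (residual degrees of freedom 6, prior 6.155). A gene was called at a Benjamini-Hochberg adjusted p below 0.05. This fit also gave the SE and 95% interval of each gene. An exact test of 3 against 3 arrays cannot go below p = 0.1. The fit was tested on simulated data.

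The rule named the 12 largest called differences in each direction (non-overlapping groups, mean log2 of at least 6 in 1 group), up to 4 members of smallest p of each of 48 lists, and fixed PI3K, survival and cell cycle genes. Members and lists were chosen with earlier results of these data known. Some genes are not analysed here. The 19 alternatives covered the samples fitted, spread, array weights, replicate number, scaling (24 poly-A and 18 hybridization spike probe sets among them), probe sets, thresholds, and leaving out each array. Over all genes samples of equal number did not deviate together (r = 0.08 for number 3 and -0.02 for number 5), so they were not treated as pairs, although most HIF1 targets were highest in number 3 of both groups. Python 3.11.15 with pandas 2.3.3, numpy 2.4.6 and matplotlib 3.10.9 was used for sequences and figures.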

Additional observations from a re-analysis of the deposited data

Results flagged for a closer look

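Probe sets outside the gene table also passed the test. In a fit over all probe sets that are not array controls, 28 of the 11721 probe sets without a gene symbol were called for TGX221 against control (0.239%), 23 higher and 5 lower, by limma at an adjusted p below 0.05. The same fit called 110 of 41091 probe sets with 1 symbol (0.268%) and 9 of 1801 with several (0.5%). The lowest adjusted p was that of a probe set without a symbol, which lay at 8.74 in the controls and 8.19 with TGX221 (log2 difference -0.55, adjusted p = 0.0144). The probe sets with the largest called fall and rise, chosen after their values were seen, lay outside the range of the genes. One with several symbols lay at 9.86 in the controls and 8.84 with TGX221 (-1.02, adjusted p = 0.0475), and one without a symbol at 6.94 and 7.66 (0.71, adjusted p = 0.0475). What these probe sets detect was not tested.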

How the results depend on the processing

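Counts are given as genes called higher, then lower, against 160 and 79 as reported. Where every probe set was tested, they are counts of probe sets instead, and 47 and 9 of the genes called as reported stayed called. They were within 1.5 times of these with a trended and robust spread (179 and 94), array medians (125 and 80), cyclic loess (130 and 89) and genes at or above the median brightness (142 and 79). They were 0 and 0 in the 6-array fit and at an adjusted p below 0.01, 0 and 3 at 1.5-fold or more, 26 and 4 with the mean of a gene's probe sets, 75 and 24 with every probe set tested, 734 and 579 with array weights, 464 and 44 on the poly-A spikes and 81 and 552 on the hybridization spikes. The share of calls that were higher was 66.9% as reported, 55.9% with array weights and 86.7% with the mean of probe sets. Leaving out 1 array gave 0 to 385 higher and 0 to 316 lower. With the replicate number as a block the counts were 0 and 0, with 2183 genes at an unadjusted p below 0.05 and a smallest adjusted p of 0.215. The labels do not say that a number marks a shared culture, and only 2 numbers are shared. The causes of these changes were not tested. Of the 24 genes with the largest differences, 24 stayed called with array medians, cyclic loess, either spike scaling, array weights, a trended spread and without TGX221 replicate 3, 13 with every probe set tested, 7 without control replicate 5 and 3 with the mean of probe sets. Under the 6-array fit, the block, the adjusted p below 0.01 and each of the other 4 omissions it was 0. Called list members outside these 24 also lost their calls often. OSGIN1 lost its call under 15 of 19 alternatives, POLR1A under 14 of 19 and RRP9 under 13 of 19. For ATG16L1 and IFIT1 it was 13 of 18 each, for BCL2A1 11 of 18, for STARD4 11 of 19 and for H2BC21 10 of 19. Of the 239 called genes 1 changed sign, with the mean of probe sets, and was then not called. The median of the HIF1 targets ran from -0.57 to -0.24 and that of glycolysis from -0.20 to -0.06 over the alternatives. Depth does not apply to arrays, and the 3 arrays of a group limit the precision.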
